A study of Mus musculus with 2 samples.

Results

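Of 9 genes that carry retinoids or act as their nuclear receptors, 1 fell and 1 rose in ureters with a conditional loss of Gata6, and 7 did not pass the test. Of all genes tested, 2.35% fell and 2.20% rose. Rbp4, the carrier of retinol in blood, was 1.57-fold lower, and Stra6, the membrane receptor that takes retinol up from RBP4, was 1.5-fold higher. Neither change passed under 5 of 10 other processing settings. The genes were Rbp4, Stra6, Crabp1, Crabp2, Rara, Rarb, Rarg, Rxra and Rxrb. Their probes were taken by gene name in the scanner files, leaving out control spots, which gave 13 of 39429 probes. Of these, 12 probes of all 9 genes were bright enough to be kept. The 19801 genes kept in all were tested together.

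Total RNA came from ureters dissected from NMRI mouse embryos at E14.5. The Gata6cKO embryos had the genotype Tbx18(cre/+);Gata6(fl/fl), and the controls were Gata6(fl/?), with no cre in their labels. Cre stood in the Tbx18 locus, which is active in the mesenchyme around the ureteric epithelium, so that recombination concerns cells with a history of Tbx18 expression and their descendants. All 4 RNAs carried at least 1 floxed Gata6 copy, and cre was in the label of every Gata6cKO RNA and of no control RNA. What Gata6 loss does and what cre, or a Tbx18 locus carrying it, does cannot be told apart. The RNAs were hybridised in pairs to 2 two-colour Agilent arrays. The replicate 1 array held male RNAs, with Gata6cKO in Cy5. The replicate 2 array held female RNAs, with Gata6cKO in Cy3. Sex, dye orientation and replicate change together, so that they cannot be told apart. No label states whether embryos were pooled or which litters they belonged to, so the spread between these samples may be technical. The limma SEs and p-values rest mostly on the spread pooled over all genes (11.9 prior degrees of freedom). The gene's own 2 arrays add 1 residual degree of freedom.

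Retinoic acid is a signal that cells make from vitamin A. Retinol travels in blood on RBP4, which circulates bound to transthyretin, and enters cells through STRA6. Inside the cell, aldehyde dehydrogenases complete the synthesis of retinoic acid, CRABP proteins bind it in the cytoplasm, and CYP26 enzymes break it down. In the nucleus it binds a retinoic acid receptor (RAR), which sits on DNA together with a retinoid X receptor (RXR). Their site is a direct repeat of a short core sequence. In the embryonic urinary tract, retinoic acid signals shape both the epithelium and the mesenchyme.

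Rarb carries the best known of these sites, and its promoter is shown because Rarb is both a receptor and a target of the pathway. The sequence is that of the RefSeq table for GRCm38.p6. It covers the 250 bases before the Rarb start site listed there (chr14:16575477-16575726, minus strand), written 5′ to 3′ along the gene. Capitals mark a direct repeat with a spacer of 5 bases, called DR5. Whether the Rarb probes read transcripts from this start alone was not tested.
Rarb promoter: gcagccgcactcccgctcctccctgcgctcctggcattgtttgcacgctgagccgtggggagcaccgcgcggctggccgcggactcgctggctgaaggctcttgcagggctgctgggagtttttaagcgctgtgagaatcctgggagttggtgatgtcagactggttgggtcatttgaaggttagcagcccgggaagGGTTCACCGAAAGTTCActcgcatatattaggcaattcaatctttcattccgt
The repeat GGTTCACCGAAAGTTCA lies 53 to 37 bases before the start. Promoters were found for 8 of the 9 genes, all but Crabp2, in 18 windows of 250 bases. Rarb was the 1 gene among them with a DR5, searched on both strands, and 0.0883% of 32851 promoter windows of the same length held one. The repeats with spacers of 1 and 2 bases, DR1 and DR2, were in none of the 18 windows and in 0.164% and 0.174% of all windows.

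The promoters of the genes that fell and rose are shown as stretches of 30 bases around the only searched motif found in each, in capitals. The Rbp4 stretch (chr19:38124822-38124851, minus strand) covers 40 to 11 bases before a start site and holds TATAAA, which 12.4% of all windows contained. The Stra6 stretch (chr9:58133847-58133876, plus strand) covers 228 to 199 bases before 1 of 4 listed start sites and holds AGATAA, a sequence that GATA factors can bind, on the opposite strand. AGATAA was in 9.99% of all windows, and Stra6 and Rarg each held it in 1 window.
Rbp4: tccccccggagcTATAAAggaccgacggcc
Stra6: tgcttttaaagcTTATCTgtacaagaccgt
Of the 13 probes, 4 contained the polyadenylation signal AATAAA, for Stra6, Rara, Rarb and Rarg. The probes of Crabp1 and the dimmer kept probe of Rarb, each 60 bases long, are taken as coding from knowledge of the proteins, and no exon map was used here. They are given because the Rarb results compare probes at different places in the gene.
Crabp1 (A_52_P185907): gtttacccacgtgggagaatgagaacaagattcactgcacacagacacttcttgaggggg
Rarb (A_55_P2084807): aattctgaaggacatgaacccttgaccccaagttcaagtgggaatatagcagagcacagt

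Between 67.2% and 68.5% of spots exceeded background clearly in every channel, and no spot was saturated. The number of arrays limits the precision. The Gata6 probe read 12515 and 16355 in the controls and 22508 and 22457 in Gata6cKO, a log2 ratio of 0.65 ± 0.12 (limma SE, n = 2 arrays; adjusted p = 0.00612). Whether that probe lies in the floxed part was not settled, so its value checks nothing about the labels. All 14 urothelial, 7 smooth muscle and 6 mesenchymal markers fixed for the tissue check were kept. At an adjusted p under 0.05, 2.35% of the 19801 genes were lower and 2.20% higher in Gata6cKO, 4.55% in all, against 1 lower and 1 higher of the 9 retinoid genes.

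Levels below are normalised intensities of the brightest kept probe of a gene, on a linear scale. They compare RNAs for the same probe and are not set against other probes. Changes are log2 ratios of Gata6cKO over control.

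Rbp4 read 2180 in the male control and 1121 in the male Gata6cKO RNA, and 1439 and 1141 in the female control and Gata6cKO RNAs. Both controls were above both Gata6cKO RNAs. The mean log2 ratio was -0.65 ± 0.14 (limma SE, n = 2 arrays; 95% interval -0.95 to -0.34; adjusted p = 0.0157 over all genes). The ratio was -0.96 on the male array, where the 4 spots lay between -0.99 and -0.91. It was -0.33 on the female array, with spots between -0.35 and -0.30. The Rbp4 probe lies on chromosome 19 at 38191120 to 38191179 (mm9). Its Gata6cKO levels differed 1.02-fold between the arrays and its control levels 1.51-fold.

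Stra6 read 3583 in the male control and 6693 in the male Gata6cKO RNA, and 5378 and 6487 in the female control and Gata6cKO RNAs. Both Gata6cKO RNAs were above both controls. The mean log2 ratio was 0.59 ± 0.14 (limma SE, n = 2 arrays; 95% interval 0.28 to 0.89; adjusted p = 0.0294). It was 0.90 on the male array, with spots between 0.85 and 1.00, and 0.27 on the female array, with spots between 0.24 and 0.30. The Stra6 probe lies on chromosome 9 at 58001701 to 58001760 (mm9). Here too the Gata6cKO levels were close, 1.03-fold apart, and the control levels 1.5-fold apart.

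Rbp4 and Stra6 thus moved in opposite directions with the same asymmetry between the arrays. Their array ratios stood 0.31 and 0.32 on either side of their means, and 2.25% and 2.18% of all genes had a larger difference. Both distances exceed the limma SE of 0.14, which is set mostly by the spread pooled over all genes. Under 5 of 10 other settings neither gene passed, with an adjusted p of 0.121 to 0.338 for Rbp4 and 0.167 to 0.886 for Stra6, at log2 ratios of -0.67 to -0.65 and 0.54 to 0.59. Without the pairing of RNAs on an array, as 4 separate samples, their adjusted p-values were 0.135 and 0.175. Without the male array the log2 ratios were -0.33 and 0.27, and without the female array -0.96 and 0.90.

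**Figure D1:**
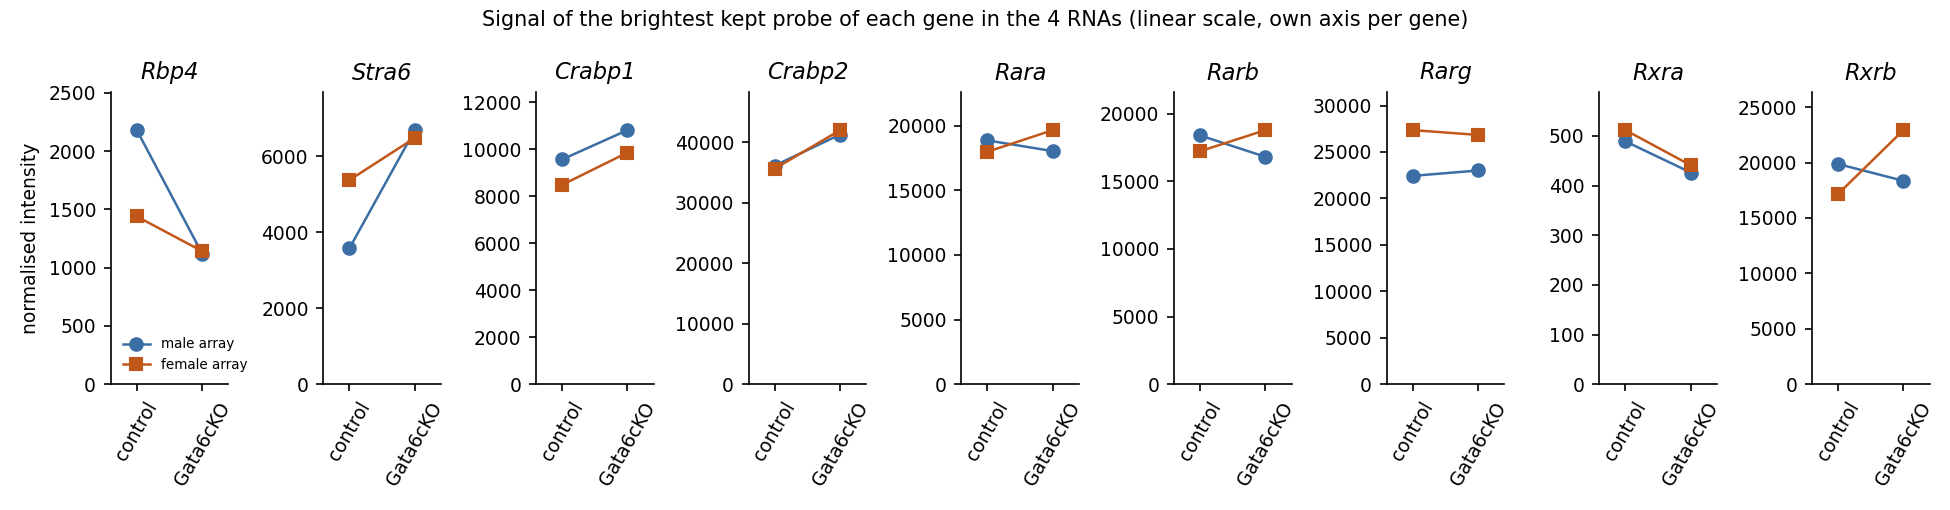
Normalised intensity (linear axis from 0, own axis for each gene) of the 9 genes in control and Gata6cKO RNA. Points are single RNAs and lines join the RNAs of 1 array (circles, male; squares, female). For Rbp4 and Stra6 the Gata6cKO points coincide and the control points differ 1.51-fold and 1.5-fold.

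The cytoplasmic binding proteins were slightly higher in Gata6cKO on both arrays, and neither passed the test. CRABP1 binds retinoic acid in the cytoplasm, and CRABP2 passes it to the receptors. Crabp1 read 9571 and 8489 in the male and female controls and 10819 and 9863 in Gata6cKO, a log2 ratio of 0.20 ± 0.11 (n = 2 arrays; limma adjusted p = 0.659, 95% interval -0.04 to 0.43). Crabp2 read 36121 and 35602 in the controls and 41248 and 41975 in Gata6cKO, a log2 ratio of 0.21 ± 0.11 (limma adjusted p = 0.563, interval -0.02 to 0.45). In both genes the groups did not overlap. The male and female pairs gave nearly the same ratio, 0.18 and 0.22 for Crabp1 and 0.19 and 0.24 for Crabp2.

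The RARs had mean ratios near 0. Rarb, itself a target of retinoic acid through the DR5 shown above, read 18388 and 17222 in the male and female controls and 16805 and 18781 in Gata6cKO. The groups overlapped, at a mean of 0.00 ± 0.12 in log2 ratio (n = 2 arrays; 95% interval -0.25 to 0.25; limma adjusted p = 1). The male pair gave -0.13 and the female pair 0.12, each time with all 4 spots on the same side of 0. The dimmer kept Rarb probe, printed above, had a log2 ratio of 0.03, with -0.10 and 0.16 on the arrays.

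The 3 Rarb probes lie at different places in the gene. The 2 kept probes (chromosome 14, 17263367 to 17263426 and 17264648 to 17264707, mm9) list 4 RefSeq transcripts each. The third (17651424 to 17651483) lies 386717 bases upstream of the dimmer kept probe and lists 2. At the third probe, 0 of 4 spots were well above background in 3 of the RNAs, and 2 of 4 in the female control. At the 2 kept probes every spot of every RNA was well above background.

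Rara, the most widely expressed RAR, read 18852 and 17977 in the controls and 18026 and 19648 in Gata6cKO, a log2 ratio of 0.03 ± 0.11 (limma adjusted p = 1, interval -0.21 to 0.28). Its groups overlapped. The dimmer Rara probe gave 0.45 in the male pair and -0.13 in the female pair, opposite in sign to the brighter probe on both. Rarg, the remaining RAR, read 22428 and 27354 in the controls and 23009 and 26835 in Gata6cKO, a log2 ratio of 0.00 ± 0.11 (limma adjusted p = 1, interval -0.23 to 0.24). Its values followed the array, with both female RNAs above both male ones. The sign of these near-zero ratios turned under other scalings, to -0.02 for Rara with median centring and to -0.06 for Rarg.

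The RXRs, which pair with the RARs and with other nuclear receptors, did not pass either. Rxra read 489 and 512 in the controls and 426 and 441 in Gata6cKO. Both Gata6cKO RNAs were below both controls, at a log2 ratio of -0.21 ± 0.11 (n = 2 arrays; limma adjusted p = 0.600, 95% interval -0.44 to 0.03). The ratios of -0.20 and -0.22 on the arrays were nearly equal, and a dimmer Rxra probe gave -0.06 and -0.13. Rxrb read 19865 and 17161 in the controls and 18347 and 22922 in Gata6cKO, with overlapping groups, at a log2 ratio of 0.15 ± 0.13 (limma adjusted p = 1, interval -0.14 to 0.44). The male pair gave -0.11 for Rxrb and the female pair 0.42, with no spot on the other side of 0 on either, and 4.2% of all genes had a larger difference between the arrays.

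In all, 5 of the 9 genes had groups that did not overlap, against 33.5% of all genes tested. Of these, 2 were lower in Gata6cKO (Rbp4 and Rxra), against 17.6% of all genes, and 3 were higher (Stra6, Crabp1 and Crabp2), against 15.9%. The sign was the same on both arrays in 5 of 9 genes, against 48.8% of all genes. The median log2 ratio of the 9 genes was 0.03, and that of all genes was 0.00. None of the 9 reached 2-fold on both arrays, as 0.212% of genes did downward and 0.187% upward.

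**Figure D2:**
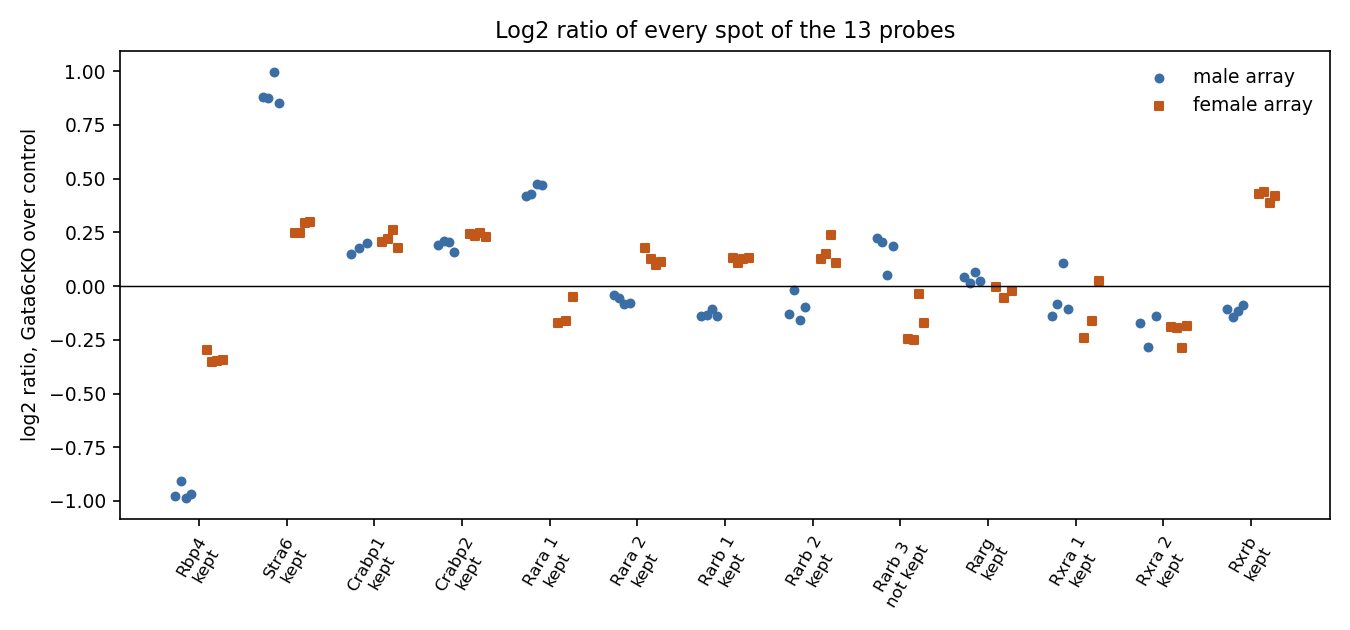
Log2 ratio of Gata6cKO over control for every spot of the 13 probes that was not marked as an outlier (circles, male array; squares, female array). Where a gene has several probes they are numbered by probe name. Spots of 1 array mostly lie close together, while the arrays stand apart for Rbp4 (-0.96 and -0.33), Stra6 (0.90 and 0.27), Rxrb (-0.11 and 0.42) and the dimmer Rara probe (0.45 and -0.13).

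**Figure D3:**
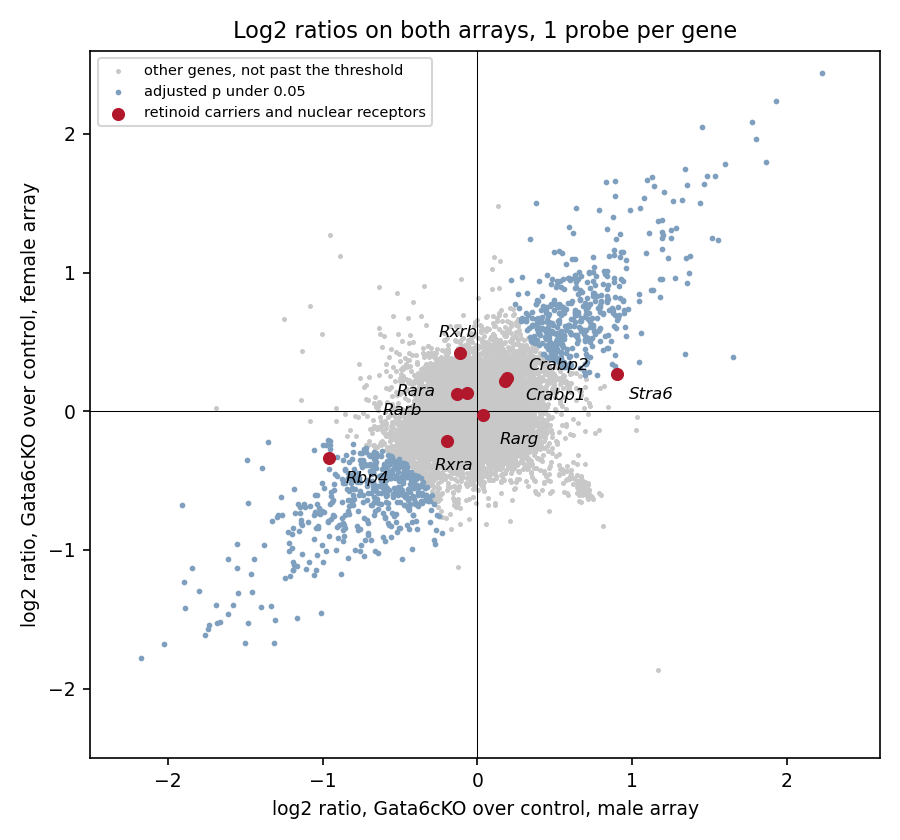
Log2 ratio of each of 19801 genes on the male array (x axis) and the female array (y axis), with the 9 retinoid genes in red and genes past the threshold in blue. Rbp4 and Stra6 lie at the edge of the blue clouds, at larger ratios on the male array, and the other 7 lie in the grey centre.

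Around these 9 genes, the pathway was followed in 7 lists with 54 genes, of which 45 were kept. Of these, 3 rose, 3 fell and 39 did not pass, with a median log2 ratio of 0.03. Of 9 kept genes of synthesis and storage, 2 rose, 1 fell and 6 did not pass. Aldh1a3 and Aldh1a2, which make retinoic acid, went from 755 and 792 to 3538 and 4289, and from 10677 and 12470 to 24459 and 28003, in the male and female pairs. Their log2 ratios were 2.33 ± 0.11 and 1.18 ± 0.11 (limma adjusted p = 6.11e-07 and 3.05e-05), their groups did not overlap, and both passed under all 10 other settings. Lrat, which stores retinol as esters, went from 237 and 277 to 158 and 181, a log2 ratio of -0.60 ± 0.11 (limma adjusted p = 0.00519). Aldh1a1, another dehydrogenase of this family, did not pass, at 0.19 ± 0.11 (limma adjusted p = 0.677).

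Of 2 kept CYP26 enzymes, Cyp26b1 rose, from 1128 and 1086 to 1822 and 1479 (log2 ratio 0.57 ± 0.12; limma adjusted p = 0.0102). Cyp26a1, also a widely used target of retinoic acid, read 384 and 542 in the controls and 557 and 640 in Gata6cKO, a log2 ratio of 0.39 ± 0.12 (limma adjusted p = 0.0962). The Cyp26b1 call was lost under 4 of 10 other settings.

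Among other carriers, Ttr, which encodes the transthyretin that binds RBP4 in blood, fell with Rbp4, from 320 and 270 to 164 and 155 (log2 ratio -0.88 ± 0.11; limma adjusted p = 3.99e-04). The other 3 kept carriers did not pass.

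None of 9 coregulators passed in limma, with log2 ratios between -0.09 and 0.15. Of 11 partners of RXR, Pparg, a receptor for lipids that works with RXR, fell from 6984 and 6763 to 4666 and 4535 (log2 ratio -0.58 ± 0.11; limma adjusted p = 0.00652), and the other 10 partners missed the threshold. With median centring, Lrat, Ttr and Pparg did not pass (limma adjusted p = 0.609, 0.0534 and 0.494), at ratios of -0.59, -0.85 and -0.62, while all 3 passed under the other 9 settings. With processed signals and with the authors' values the ratio was larger, -0.95 and -0.93 for Lrat and -1.396 and -1.379 for Ttr. The list of genes that retinoic acid induces in many cells left out Rarb, Stra6, Crabp2 and Cyp26b1, which are reported above. None of its 11 kept genes passed at an adjusted p under 0.05 in limma, against 4.55% of all genes. The ratios of these 11 genes ran from -0.23 (Tgm2) to 0.39 (Cyp26a1), with a median of 0.13.

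Rxrg, the third RXR, gave 2 answers. Its brightest probe read 3369 and 3821 in the controls and 3551 and 3639 in Gata6cKO, at a log2 ratio of 0.00 ± 0.11. The dimmer Rxrg probe went from 564 and 453 to 860 and 974, a log2 ratio of 0.86 (adjusted p = 5e-04 in limma over all kept probes). As the mean of both probes, Rxrg passed, at 0.43 (limma adjusted p = 0.0392).

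**Figure D4:**
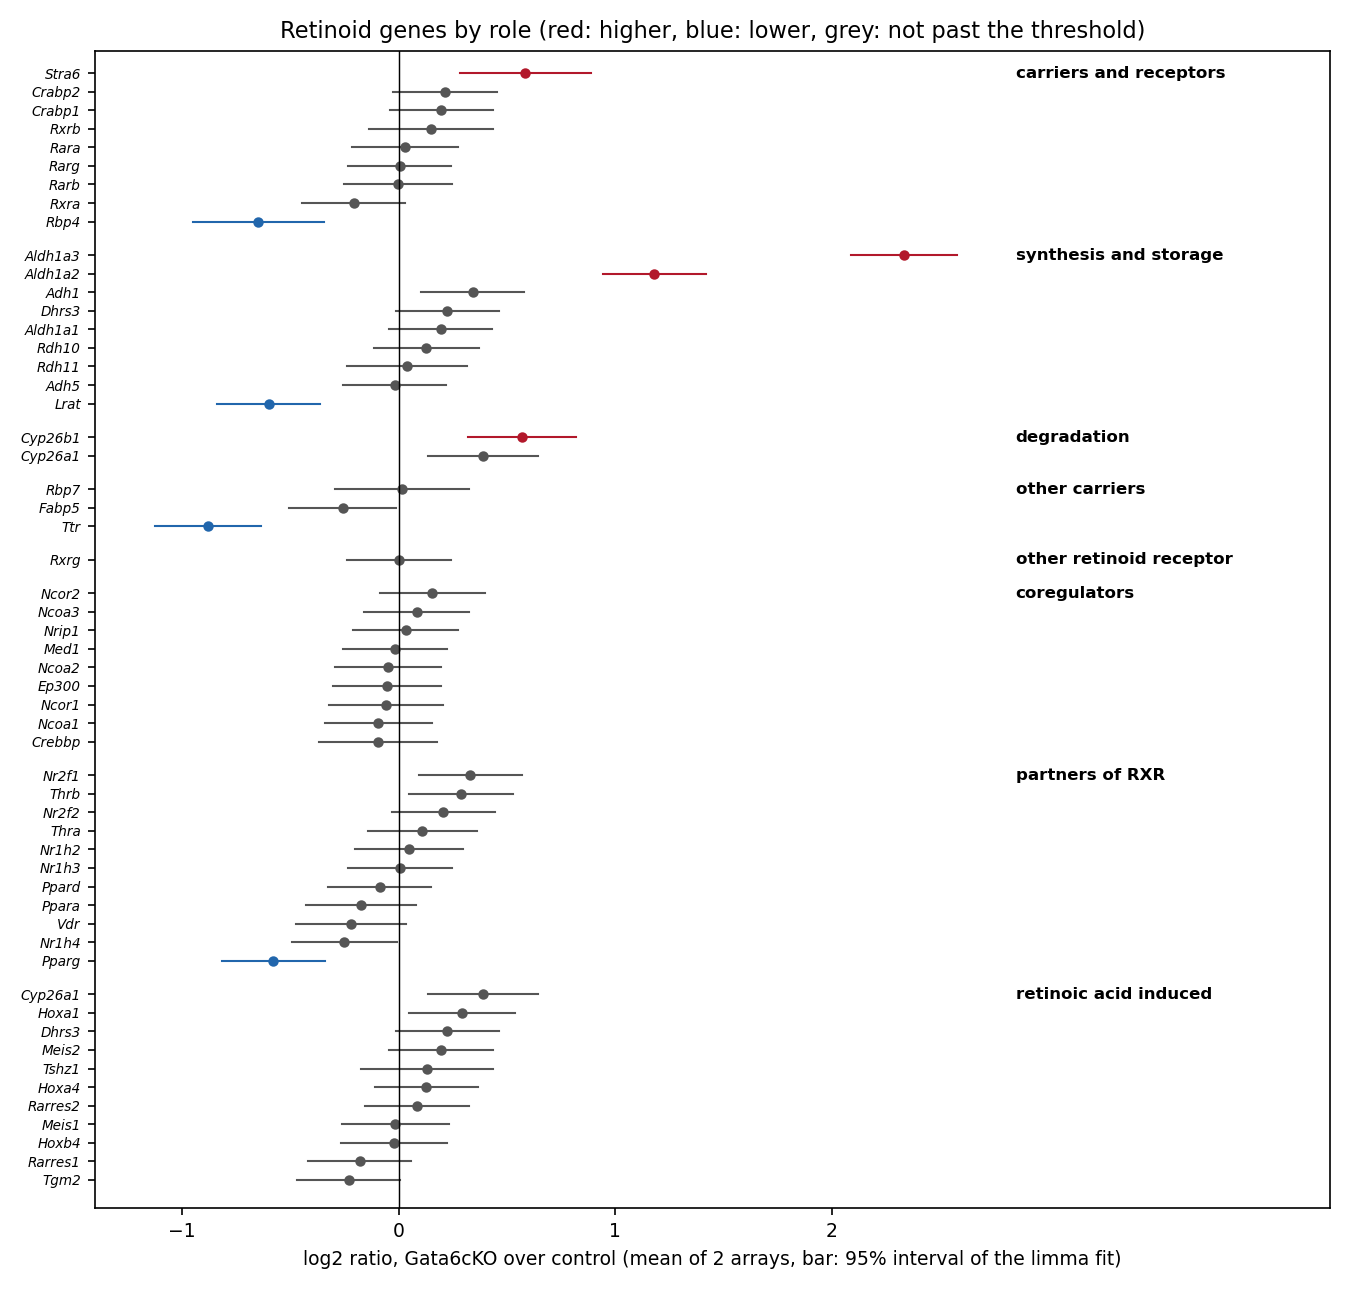
Log2 ratio of Gata6cKO over control (mean of 2 arrays) for the 9 retinoid carriers and receptors and for kept genes of 7 pathway lists (1 gene is not shown), with 95% intervals of the limma fit. Red points rose, blue points fell and grey points did not pass, and Aldh1a3 (2.33) and Aldh1a2 (1.18) lie farthest from 0.

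Whole ureters were measured, and in bulk RNA fewer cells of a type and less RNA per cell cannot be told apart. Markers of several cell types moved in the same RNAs, while none of 6 ureter mesenchyme and none of 5 macrophage markers passed. Of 5 blood markers 1 fell, and of 5 endothelial markers 1 fell. Of 14 urothelial markers 8 fell and none rose, and their summed level was 243900 and 235400 in the male and female controls and 191300 and 172300 in Gata6cKO. Of 8 markers of the nephron and kidney stroma 4 rose and none fell, with sums of 25360 and 23260 in the controls and 39930 and 34560 in Gata6cKO. Wt1 rose most of these, at a log2 ratio of 1.22. It is also on the mesothelium list, of which 1 marker rose and 3 fell. Of these 3, Krt19 and Upk3b are also on the urothelial list. Neurons and glia were followed by 10 markers, of which 9 rose and none fell, with sums of 92050 and 84530 in the controls and 99030 and 109200 in Gata6cKO. Of 7 smooth muscle markers 4 fell and none rose, with sums of 32430 and 19750 in the controls and 20540 and 14750 in Gata6cKO. Their part in the Rbp4 and Stra6 results was not tested.

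The liver, the main source of circulating RBP4 and transthyretin, was followed by 8 markers. Apoa1, Fgb and Ahsg were not kept. Of the 5 kept, Ttr fell and 4 did not pass, with sums of 4206 and 3552 in the controls and 3434 and 3692 in Gata6cKO. Alb, which encodes serum albumin, gave -0.49 in the male pair and 0.50 in the female pair, where 0 of 4 control spots were well above background. The part of this list in the Rbp4 result was not tested.

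Likeness to Rbp4 and Stra6 was measured as the distance between genes in the plane of the log2 ratios of the 2 arrays, which are the only points. Nearest to Rbp4 were Tmco4 (-0.91 and -0.33), Wnt10a (-0.95 and -0.28) and Ecrg4 (-0.96 and -0.42). Nearest to Stra6 were Atf3, a stress-induced transcription factor (0.89 and 0.32), Acta1, the skeletal muscle actin (0.82 and 0.19; limma adjusted p = 0.0677), and Ism1 (0.77 and 0.26). The others passed the test, and their distances lay between 0.054 and 0.131.

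**Figure D5:**
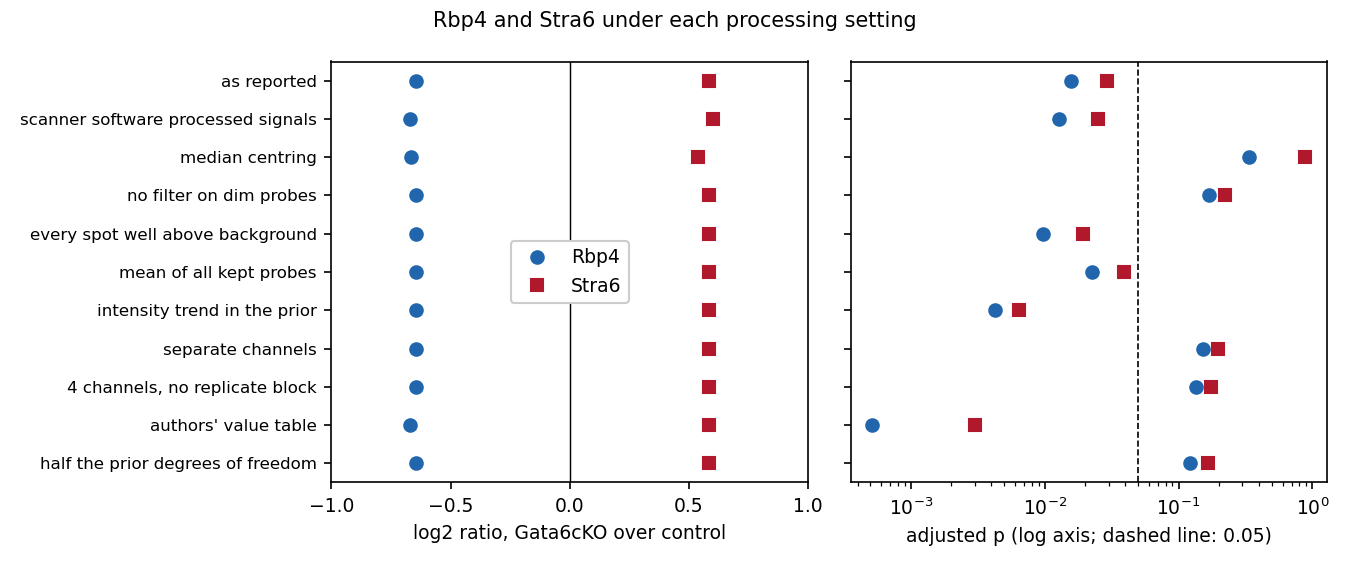
Log2 ratio (left) and limma adjusted p (right, log axis, dashed line at 0.05) of Rbp4 (circles) and Stra6 (squares) with the reported setting (top) and 10 others. The log2 ratios were computed anew only with processed signals, median centring and the authors' values, and hardly moved there. The other settings reuse the reported ratios. The adjusted p-values lie on both sides of 0.05.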

How the data were processed

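Per the file headers, the deposited scanner files give raw mean and local background intensity per spot and dye, processed intensity after detrending and lowess dye correction, and log10 ratios, on mm9 coordinates. The software was Agilent Feature Extraction 10.7.3.1, per the submitters' processing notes. The deposited series values are a score, with no value between -1 and 1. Their log2 values had an r of 0.985 and 0.980 with the processed log2 ratios turned to Gata6cKO over control. How the score was summarised is not given in the sources used here.

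Raw intensities were corrected with normexp (offset 50) and loess in limma 3.58.1 (R 4.3.3, statmod 1.5.0). Control spots and outliers had weight 0 in loess, and the mean over spots gave a probe's value. The filter asked for 3 or more well-above-background spots of 4 in 1 genotype, on both arrays, and left 26200 probes, of which the brightest stood for its gene. Levels were scaled between arrays by Aquantile. The log2 ratio, turned on the dye-swapped array, was fitted with lmFit and eBayes (1 residual and 11.9 prior degrees of freedom, prior SD 0.162). P-values are two-sided, and the Benjamini-Hochberg adjustment covered 19801 genes, called at 0.05. On simulated data the fit recovered the strong changes put in, but its share of false calls exceeded the threshold. A prior with fewer degrees of freedom was therefore added as a setting after seeing the data.

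Symbols were updated with a RefSeq table (GRCm38.p6), by accession for 28328 probes. Named genes are the 9 genes, retinoid genes fixed by name (Aldh1a1, Aldh1a2, Aldh1a3, Cyp26a1, Cyp26b1, Rxrg, and 1 that is counted in its list and not reported here), pathway genes past the threshold (at most 4 a list) and the 3 nearest genes of each called member. Others were named after their values were seen. Members and lists were chosen with earlier results of these data known. Sums are not given in the text for mesenchyme, fibroblasts, mesothelium, endothelium, blood, macrophages and skeletal muscle. These cell type lists had medians of -0.13, -0.19, -0.86, 0.08, -0.40, 0.05 and 0.10. Each array is its own pair of RNAs. There were 0 unused per-sample columns.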

Additional observations from a re-analysis of the deposited data

Results flagged for a closer look

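In 4 of the 9 genes and in Rxrg the ratio of Gata6cKO over control was above 0 on 1 array and below 0 on the other. The arrays differ in sex, dye orientation and replicate together, so that these cannot be told apart. For Rxrb the male pair gave a log2 ratio of -0.1146 and the female pair 0.4176. These values were -0.0646 and 0.1282 for Rara, -0.1299 and 0.125 for Rarb, 0.0369 and -0.0277 for Rarg, and 0.0756 and -0.0705 for Rxrg. All are from the brightest probe of each gene. The dimmer kept probes gave 0.4481 and -0.1278 for Rara, -0.1007 and 0.1554 for Rarb, and 0.6096 and 1.1039 for Rxrg. The difference between the arrays was not tested, since each sex is 1 array with its own dye orientation. Of all genes, 48.8% had the same sign on both arrays.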

How the results depend on the processing

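Crabp1, Crabp2, Rxra and Rxrb kept their direction and did not pass under any of the 10 other settings with a test. Rbp4 and Stra6 kept their direction under all of these and passed under 5. For Rbp4, Stra6, Crabp1, Crabp2 and Rxrb, ratios were computed anew only with processed signals, median centring and the authors' values. The other settings with a test reuse the reported ratio, so its direction could not turn. For Rbp4 and Stra6 the log2 ratios and adjusted p-values were -0.67 (0.338) and 0.54 (0.886) with median centring. At unchanged ratios of -0.65 and 0.59, the adjusted p-values were 0.169 and 0.223 without the filter on dim probes, 0.153 and 0.196 for separate channels, 0.135 and 0.175 as 4 channels with no replicate block, and 0.121 and 0.167 with a smaller prior. In each of these settings 0 of the 9 genes were called lower and 0 higher. Near-zero ratios turned sign: Rara to -0.0222 and Rarg to -0.0633 with median centring, Rarg to -0.0048 with processed signals and -0.0108 with the authors' values, and Rarb to 0.0124 as the mean of its probes. Outside the 9 genes, Rxrg turned to -0.0369 with median centring. With 1 array left there is no test. The ratio then lay between -0.96 and -0.33 for Rbp4 and between 0.27 and 0.90 for Stra6. For Rxrb the ratio turned to -0.1146 with the male array alone and was 0.4176 with the female array alone.

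Of all genes, 465 fell and 436 rose. The counts were 100 and 90 with median centring, 229 and 248 with no filter, 267 and 275 with separate channels, 296 and 301 with no replicate block, 795 and 672 with the authors' values, and 222 and 244 with a smaller prior. Among the pathway lists, with median centring no gene of synthesis and storage, of other carriers or of the partners of RXR was lower (0 in place of 1). Cyp26b1 was not called with median centring, no filter, separate channels or a smaller prior (0 in place of 1). Rxrg was called as the mean of its probes (1 in place of 0). Of the RXR partners, 2 fell and 1 rose with processed signals, 3 fell and 1 rose with the authors' values, and 1 rose with an intensity trend. The cause of these moves was not tested.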
